A study of Rattus norvegicus with 11 samples.

Results

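Platelet genes were followed through the RNA of peripheral leukocytes, named here by 9 genes of blood platelets: Pf4, Ppbp, Itga2b, Itgb3, Gp1bb, Gp9, Gp5, Treml1 and Tubb1. They were found by symbol, each on a single row, among the 32623 genes of the deposited table. The 11 samples came from Wistar rats, males aged 7 weeks at the start of the experiment by the study's methods. Controls were 3 healthy rats (Control). The other samples came from 4 rats with collagen-induced arthritis (CIA), an arthritis raised by immunization with type II collagen in incomplete Freund's adjuvant and boosted on day 7. Each CIA rat was sampled at a status the labels call Nampt++ (Nampt overexpressed, about day 8) and again at one they call Nampt+ (about day 14), and the statuses were set by the study's own PCR. WBCs are what remained of the blood pellet after lysis of the red blood cells, and the sources used here describe no step that removes platelets. As Nampt status, day and with it the time since the boost were always paired, they cannot be told apart. For the Control samples the sources used here give no sampling day.

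Platelets are fragments of megakaryocytes without a nucleus, and their RNA is handed down from the mother cell. On their surface the GPIb-IX-V complex catches von Willebrand factor and the integrin αIIbβ3 binds fibrinogen, which joins platelets to each other. Their alpha granules hold chemokines such as PF4, and release of these is one way by which platelets act on leukocytes in inflammation.

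All 4 leukocyte markers looked at (Ptprc, Itgb2, Coro1a and Cd53) were present, with a summed level of 957 to 2115 FPKM per sample. In FPKM the fragments of a gene are divided by its length and by the depth of the sample, so levels of different genes can be compared. An extraction protocol in the labels speaks of retina, but of 5 retina markers Pde6b, Gnat1 and Rcvrn stayed under 0.1 FPKM in all samples and the sum never exceeded 1.93 FPKM. Total counts ranged from 65340027 to 85819418 per sample. Haemoglobin RNA took 6.84% to 42.8% of them. In bulk RNA, fewer platelets and less RNA per platelet cannot be told apart.

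The promoters of 4 of these genes are shown first. Itga2b, Gp1bb and Gp5 hold matches to the letters searched for megakaryocyte factors. Ppbp, the only gene of the 9 past the thresholds in a comparison, holds no match to those letters. Treml1, which passed the thresholds in no comparison, holds no match either. Each is the 250 bases before the gene's start in RefSeq, assembly GRCr8, 5′ to 3′ on the gene's strand. Itga2b lies at chr10:87925834-87926083 (minus strand), Gp1bb at chr11:95882311-95882560 (plus strand), Gp5 at chr11:83948257-83948506 (plus strand) and Ppbp at chr14:17587300-17587549 (minus strand). Capitals mark matches on either strand. GATA factors were searched with the letters AGATAA, and with TGATAA as their variant. ETS factors, of which FLI1 acts in megakaryocytes, were searched with AGGAAG, and with CGGAAG as their variant. NF-E2, whose site AP-1 can also use, was searched with TGAGTCA. Other forms of these sites were not searched.
Itga2b: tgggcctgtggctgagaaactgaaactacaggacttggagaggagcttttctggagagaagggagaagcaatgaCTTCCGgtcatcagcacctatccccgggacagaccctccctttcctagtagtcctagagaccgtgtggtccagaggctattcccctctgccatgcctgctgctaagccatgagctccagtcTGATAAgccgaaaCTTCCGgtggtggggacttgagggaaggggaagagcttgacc
Gp1bb: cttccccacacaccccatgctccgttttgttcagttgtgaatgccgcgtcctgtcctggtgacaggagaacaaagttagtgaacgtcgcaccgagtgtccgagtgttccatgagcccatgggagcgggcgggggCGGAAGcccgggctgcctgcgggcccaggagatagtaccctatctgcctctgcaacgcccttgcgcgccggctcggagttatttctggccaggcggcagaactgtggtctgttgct
Gp5: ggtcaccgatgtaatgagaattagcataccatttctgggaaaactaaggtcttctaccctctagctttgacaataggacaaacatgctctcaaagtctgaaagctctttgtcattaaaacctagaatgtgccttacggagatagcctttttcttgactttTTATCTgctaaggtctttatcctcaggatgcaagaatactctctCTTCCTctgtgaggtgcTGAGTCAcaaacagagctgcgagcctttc
Ppbp: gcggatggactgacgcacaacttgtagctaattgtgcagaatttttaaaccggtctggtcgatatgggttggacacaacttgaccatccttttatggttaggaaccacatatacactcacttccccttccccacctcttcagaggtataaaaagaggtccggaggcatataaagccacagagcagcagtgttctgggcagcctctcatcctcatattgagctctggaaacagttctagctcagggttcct

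In Itga2b the capitals are TGATAA at -55 from the start and the reverse complement of CGGAAG (its match on the other strand) at -176 and -42. Gp1bb has CGGAAG at -116. Gp5 has all 3 kinds, the reverse complement of AGATAA at -90, the reverse complement of AGGAAG at -46 and TGAGTCA at -29. RefSeq promoters were matched for 7 of the 9 genes, not for Pf4 and Itgb3. Of those not shown, Gp9 held ETS matches at -247, -239 and -32, Tubb1 held an ETS match at -154, and Treml1 held no match. A GATA motif stood in 2 of the 7 against 16.6% of 27457 rat promoters, an ETS motif in 5 of 7 against 39.8%, and TGAGTCA in 1 of 7 against 3.98%. These are matches of letters and no evidence of binding.

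Platelet RNA was plentiful and unequal between samples. The 9 genes together took between 0.108% of counts (95% Wilson interval 0.107% to 0.108%) in the Nampt+ sample of rat 3 and 0.714% (0.712% to 0.716%) in the Nampt+ sample of rat 1, and these intervals cover counting error only. Both extremes thus lay within the same group. In Control samples the share was 0.197% to 0.345%, and in Nampt++ samples 0.265% to 0.477%. Out of the counts without haemoglobin genes, it was 0.282% to 0.440% in Control samples and 0.329% to 0.552% in Nampt++ samples. In Nampt+ samples it was then 0.132% to 0.963%, with the same rats at the ends. The order of samples changed in part, as Nampt++ rat 2 (0.552%) then passed rat 4 (0.517%). Pf4 alone gave 45.9% to 68.1% of the counts of the 9 genes.

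By mean FPKM over 11 samples the order was Pf4 (6032), Gp1bb (308), Itga2b (189), Treml1 (136), Gp9 (39.8), Itgb3 (20.5), Gp5 (15.7), Tubb1 (12.5) and Ppbp (11.2). Pf4 stood at rank 12 of the 11242 genes with a mean of at least 1 FPKM. From Pf4 down to Itgb3 each gene exceeded the next in 11 of 11 samples. The lower end was less settled: Itgb3 exceeded Gp5 in 9 samples, Gp5 exceeded Tubb1 in 9 and Tubb1 exceeded Ppbp in 7.

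**Figure D1:**
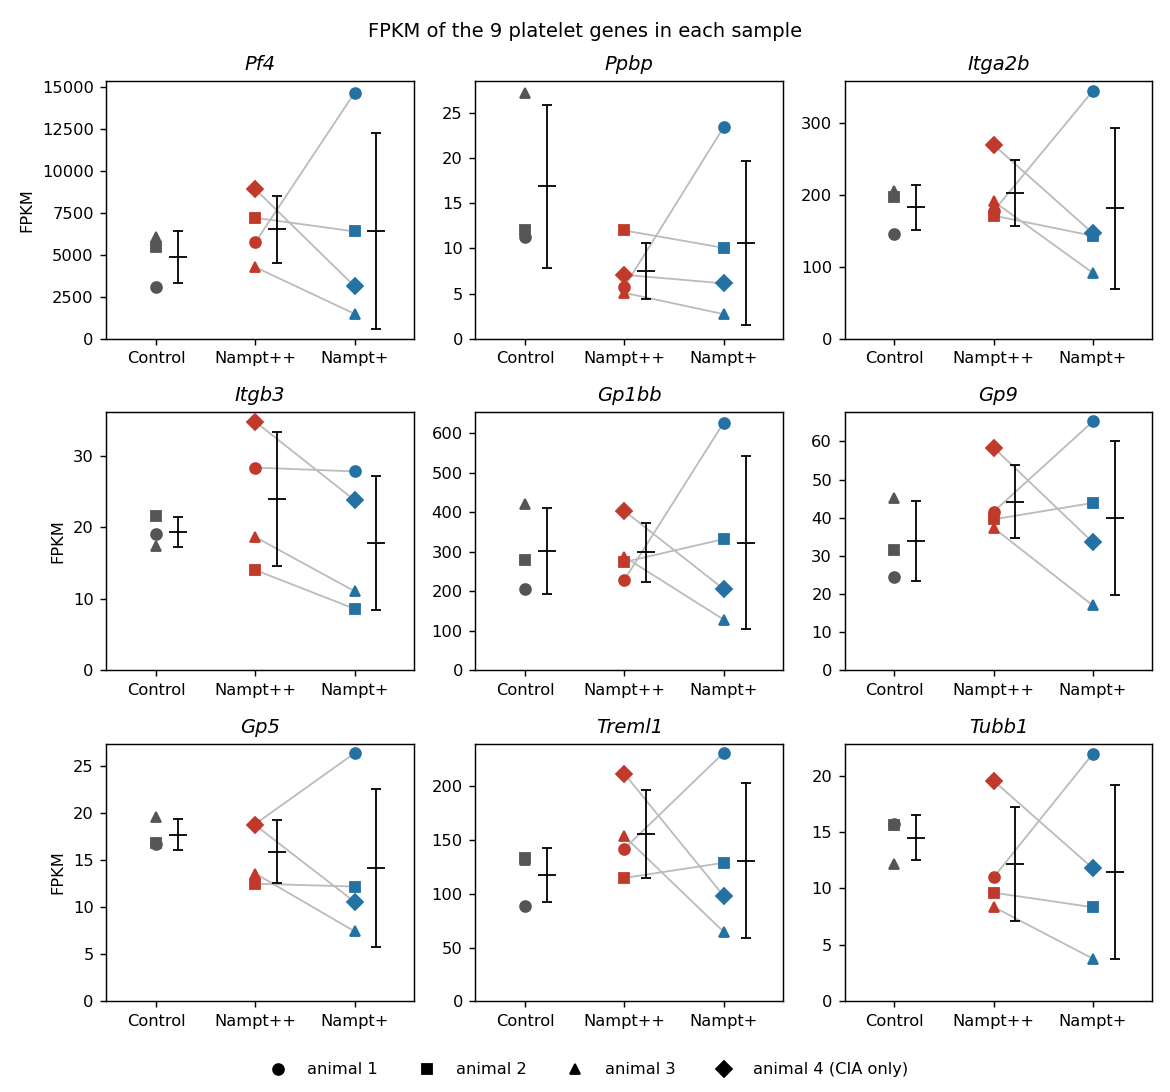
FPKM (linear axes from 0) of each of the 9 platelet genes in the 11 samples, with the group mean and SD beside the points; grey lines join the Nampt++ and Nampt+ samples of a CIA rat, and control animals are other rats with their own numbers. The groups overlap for each gene, and the Nampt+ samples spread furthest, with rat 1 at the top of its group and rat 3 at the bottom, except for Itgb3, where the Nampt++ samples span slightly more and rat 2 is the lowest of the Nampt+ samples.

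The granule chemokines were described first. Pf4 (chromosome 14, 18848549 to 18849258, minus strand, in the table's own coordinates) encodes platelet factor 4, a chemokine that binds heparin. Its level was 3107, 5443 and 6040.1 FPKM in Controls 1 to 3. In Nampt++ samples of rats 1 to 4 it was 5735, 7203, 4267 and 8909 FPKM. In Nampt+ samples of these rats it was 14645, 6391, 1484 and 3129 FPKM. The highest and the lowest of the 11 values were both Nampt+ samples, a span of 9.87-fold, and all groups overlapped.

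Ppbp lies next to Pf4 on the same strand (chromosome 14, 18851954 to 18853315) and encodes pro-platelet basic protein, from which the neutrophil-attracting chemokine CXCL7 is cut. Controls held 11.3, 12.1 and 27.3 FPKM. Nampt++ samples held 5.75, 11.99, 5.09 and 7.08 FPKM, and Nampt+ samples 23.4, 10.1, 2.73 and 6.13 FPKM. Of the Nampt++ values 3 lay below all Controls, while rat 2 lay between them.

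Integrin αIIbβ3 is made of the products of Itga2b, which is confined to platelets and their precursors, and Itgb3, whose β3 chain other cells use too. Itga2b (chromosome 10, 90398132 to 90415070, minus strand) stood at 146, 197 and 205 FPKM in Controls, at 178, 171, 191 and 269.7 FPKM in Nampt++ samples, and at 345, 143, 91.5 and 147 FPKM in Nampt+ samples. The Nampt+ sample of rat 1 exceeded all other samples and that of rat 3 was below them. Itgb3 (chromosome 10, 92667869 to 92783410, plus strand) stood at 19.1, 21.6 and 17.4 FPKM in Controls, at 28.4, 14.03, 18.7 and 34.8 FPKM in Nampt++ samples, and at 27.9, 8.59, 11.1 and 23.8 FPKM in Nampt+ samples. Here the order differed, since the highest value was the Nampt++ sample of rat 4 and the lowest the Nampt+ sample of rat 2. Itga2b exceeded Itgb3 by 6.16- to 16.7-fold.

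Of the GPIb-IX-V complex, Gp1bb (chromosome 11, 86520992 to 86522169, plus strand), the β chain of GPIb, was the most abundant. It measured 206, 279.9 and 421 FPKM in Controls, 229, 274, 287 and 403 FPKM in Nampt++ samples, and 627, 332, 128 and 205 FPKM in Nampt+ samples. Gp9 (chromosome 4, 119680112 to 119682547, plus strand), needed for the complex to reach the surface, measured 24.5, 31.6 and 45.2 FPKM in Controls, 41.6, 39.5, 37.3 and 58.4 FPKM in Nampt++ samples, and 65.2, 43.9, 16.9 and 33.5 FPKM in Nampt+ samples. Gp5 (chromosome 11, 73015387 to 73017090, plus strand), the thrombin-cleaved glycoprotein V, measured 16.6, 16.8 and 19.5 FPKM in Controls, 18.8, 12.5, 13.6 and 18.7 FPKM in Nampt++ samples, and 26.3, 12.2, 7.42 and 10.5 FPKM in Nampt+ samples. For all 3 genes the Nampt+ samples of rats 1 and 3 were the highest and the lowest of 11. Another row of the table, NEWGENE_2724 (chromosome 11, 74014983 to 74018075), is also described as glycoprotein V and held 32014 counts against 23167 for Gp5, so reads of this gene may be divided between rows and its level is uncertain. Gp1bb shares 1177 of the 1178 bases of its span with Sept5 on the same strand, which held 31918 counts against 251517. How reads were divided between these rows is not known, so the level of Gp1bb is uncertain too.

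Treml1 (chromosome 9, 14597172 to 14599594, minus strand) encodes a receptor stored in alpha granules and shown on activated platelets. It stood at 88.3, 133 and 131 FPKM in Controls, at 142, 115, 154 and 212 FPKM in Nampt++ samples, and at 231, 129, 64.6 and 98.1 FPKM in Nampt+ samples. Tubb1 (chromosome 3, 172550258 to 172558114, plus strand) encodes the β1 tubulin of the microtubule coil that keeps platelets discoid. Its levels were 15.7, 15.7 and 12.2 FPKM in Controls, 10.99, 9.63, 8.37 and 19.6 FPKM in Nampt++ samples, and 21.9, 8.34, 3.78 and 11.8 FPKM in Nampt+ samples. Both genes were again highest in the Nampt+ sample of rat 1 and lowest in that of rat 3.

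The change from Nampt++ to Nampt+ took different directions in different rats. In rat 1, 8 of the 9 genes were higher in the Nampt+ sample, with a median ratio of 1.94, and Ppbp reached 4.08-fold. In rat 3 all 9 were lower, at 0.348 to 0.592 of the earlier level. In rat 4 all 9 were lower too, at 0.351 to 0.866. Rat 2 was mixed, with 3 genes higher and 6 lower. Over 11242 genes, 48.4% were lower in the Nampt+ sample of rat 1, 78.6% in rat 2, 27.7% in rat 3 and 50.4% in rat 4. The median log2 ratio of the platelet genes was 0.94 in rat 1 beside 0.026 for all genes, -0.17 in rat 2 beside -0.46, -1.05 in rat 3 beside 0.26 and -0.78 in rat 4 beside -0.0048. In rat 2 the share of platelet genes that were lower, 6 of 9, was thus below that of all genes.

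No platelet gene was called between Nampt+ and Nampt++ samples. Called here means that the mean FPKM of one group was over 2 or under 0.5 times that of the other and that the quasi-likelihood test of edgeR on the counts gave an unadjusted p under 0.05. By this rule 72 of 11219 genes (0.642%) were called and 0 of the 9, of which 0 had an unadjusted p under 0.05 in this fit. Ratios ran from 0.744 for Itgb3 to 1.42 for Ppbp. The fitted log2 fold changes ran from -0.36 (SE 0.33) to 0.64 (SE 0.66). For Pf4 the fit gave 0.18 (SE 0.67), so that an interval of 2 SE to either side ran from -1.16 to 1.52 with 4 samples per group. Signs of such small differences depended on the measure: 5 of the 9 fitted changes were above 0, whereas 7 of the 9 ratios of means were below 1. Two-sided exact permutation tests of log2(FPKM + 1) shuffled all samples freely and left the pairing by rat aside. A paired test by sign flips over 4 rats could not give a p under 0.125. In the unpaired tests the p values were 0.343 to 0.914, where 0.0286 is the smallest possible. For Itga2b the unpaired exact p reached that limit without the Nampt+ sample of rat 1, at a difference of -0.67. Of 72 such runs with a sample left out, over the 9 genes, this was the 1 whose exact p fell under 0.05. Without the Nampt+ samples of rats 1 and 3 together, 0 of the 9 were called and the fitted changes ran from -0.36 to 0.58.

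Between Nampt++ samples and Controls 1 of the 9 genes was called, with 77 of 11219 genes (0.686%) called in all. Ppbp was lower, at 7.48 ± 3.12 FPKM (SD, n = 4) in Nampt++ samples against 16.9 ± 9.003 FPKM (SD, n = 3) in Controls, a ratio of 0.443. The background of genes called lower was 0.357%. The fitted log2 fold change was -1.09 (SE 0.40), with an unadjusted p of 0.028 by edgeR and a Benjamini-Hochberg adjusted p of 0.9999 over all genes tested. The exact two-sided permutation test gave p = 0.086, and the groups overlapped. This call was lost without Control 2, Control 3 or the Nampt++ sample of rat 1, 3 or 4, where the edgeR value rose to between 0.052 and 0.11, and with all groups in a single fit, where it was 0.13. Control 3, at 27.3 FPKM, stood above Controls 1 and 2, at 11.3 and 12.1 FPKM. The Control mean, and with it the ratio of 0.443, thus leaned on Control 3. With a sample left out, the fitted change of Ppbp ran from -1.54 to -0.83. For Gp5 the exact p was 0.40, and 0.0286 when FPKM were rescaled without haemoglobin genes, at a difference of -0.29. Of 29 alternatives that kept all samples, over the 9 genes, this was the 1 whose exact p fell under 0.05. The other 8 genes had ratios from 0.836 to 1.34, the highest being that of Pf4, with 6529 ± 1989 FPKM (SD, n = 4) against 4863 ± 1550.3 FPKM (SD, n = 3).

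Nampt+ samples and Controls, which are the same controls as above, gave 56 called genes of 11269 (0.497%) and 0 of the 9. Ratios ran from 0.628 for Ppbp to 1.32 for Pf4. Exact permutation p values ran from 0.314 to 1.00, and 0 of the 9 had an unadjusted p under 0.05 by edgeR. In none of the 3 comparisons were the values of a platelet gene free of overlap between the groups, which held for 0.41%, 1.1% and 0.444% of all tested genes in the order given. No gene of the whole table had an adjusted p under 0.05 by edgeR in any of the 3, while an unadjusted p under 0.05 was found for 256, 176 and 98 genes, and DESeq2 gave 5, 5 and 4 genes with an adjusted p under 0.05.

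**Figure D2:**
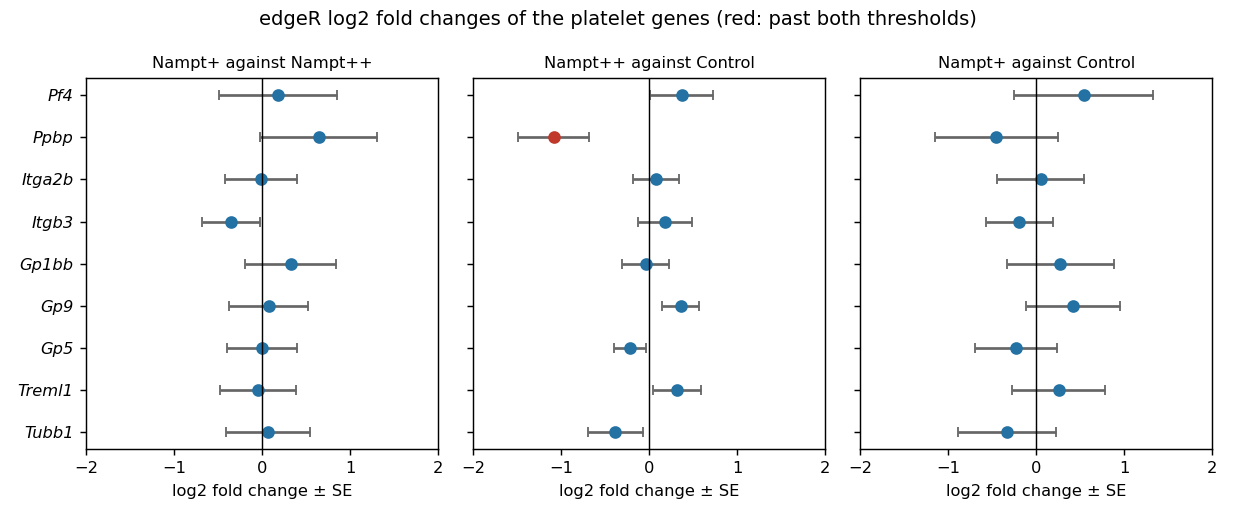
Log2 fold change (edgeR, horizontal axis, bars are SE) of each platelet gene in the 3 comparisons, with red for a gene past both the ratio and the p threshold. Ppbp between Nampt++ and Control is the single red point, at -1.09, and no other point lies further than 0.64 from 0.

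Relative to Pf4, Ppbp was higher in Controls than in CIA samples. Per 1000 FPKM of Pf4, Controls held 3.63, 2.22 and 4.51 FPKM of Ppbp. Nampt++ samples held 1.00, 1.67, 1.19 and 0.80, and Nampt+ samples 1.60, 1.58, 1.84 and 1.96. The lowest Control therefore exceeded all 8 CIA samples. A ratio to Pf4 lower than in Controls without overlap was found for 1.09% of all genes in Nampt++ samples and for 0.0621% (7 genes of 11269) in Nampt+ samples. Relative to Itga2b the same did not hold, as Controls had 6.14 to 13.3 FPKM of Ppbp per 100 FPKM of Itga2b against 2.63 to 7.00 and 2.98 to 7.03. Over the 36 ratios between members of the set, 5 were free of overlap between Nampt++ and Control. Between Nampt+ and Control 5 were, and between Nampt+ and Nampt++ 0. Between Nampt++ and Control, 2 of the 5 involved Ppbp (with Pf4 and Gp9), beside Itgb3/Tubb1, Gp1bb/Gp9 and Treml1/Tubb1. Between Nampt+ and Control, 3 of the 5 did (with Pf4, Gp1bb and Gp9), beside Itga2b/Gp5 and Gp5/Treml1. The share of such ratios between other genes was not worked out, so the counts have no background. These ratios were picked out after their values were seen and got no test.

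**Figure D3:**
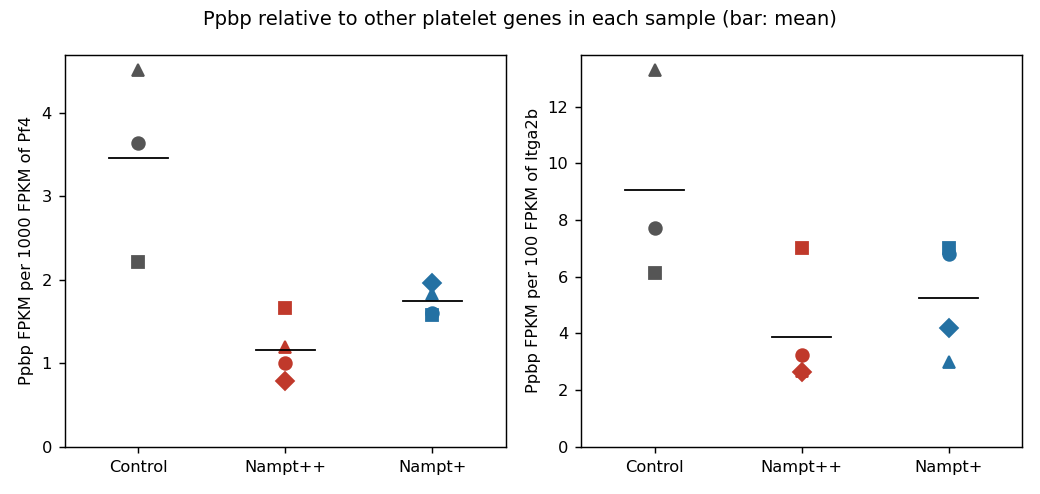
Ppbp FPKM per 1000 FPKM of Pf4 (left) and per 100 FPKM of Itga2b (right) in each sample, with bars for group means and linear axes from 0. On the left the 3 Controls, at 2.22 to 4.51, lie above the 8 CIA samples, at 0.80 to 1.96, and on the right the groups overlap.

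Most of the 9 genes varied together over the samples. Against the mean z score of the other 8, Pearson's r of log2(FPKM + 1) was 0.97 for Itga2b, 0.91 for Pf4 and Gp1bb, 0.90 for Gp5 and Treml1, 0.88 for Gp9, 0.84 for Tubb1, 0.63 for Ppbp and 0.56 for Itgb3. Without the Nampt+ samples of rats 1 and 3 these values were lower, 0.90 for Itga2b, 0.68 for Pf4, 0.71 for Gp1bb, 0.65 for Gp5, 0.74 for Treml1, 0.64 for Gp9, 0.41 for Tubb1, 0.31 for Itgb3 and 0.097 for Ppbp. Ppbp's likeness to the rest thus rested on those samples. Spearman's rho ran from 0.49 for Itgb3 to 0.94 for Itga2b. The 11 samples come from 7 animals, so the correlations are a description. Among pairs, Itga2b and Treml1 were most alike (r = 0.94) and Ppbp and Itgb3 least (r = 0.12), with a median of 0.74 over 36 pairs. The 10 pairs among Pf4, Itga2b, Gp1bb, Gp9 and Treml1 all had r of at least 0.88.

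Division by Itga2b narrowed the spread of some genes more than that of others. The SD of log2 FPKM over samples was 0.53 for Treml1 and that of its log2 ratio to Itga2b 0.17. For Gp9 these SDs were 0.55 and 0.26, for Gp1bb 0.62 and 0.27, and for Gp5 0.50 and 0.24. Pf4 kept more of its own spread (0.88 and 0.48), as did Tubb1 (0.70 and 0.40), Itgb3 (0.61 and 0.45) and Ppbp (0.97 and 0.76).

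**Figure D4:**
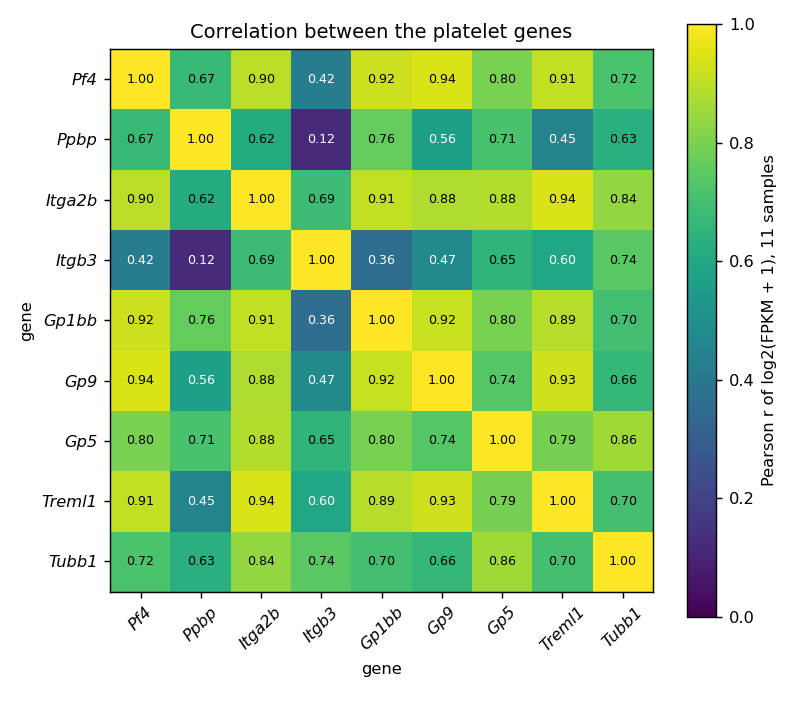
Pearson r of log2(FPKM + 1) between each pair of platelet genes over 11 samples (colour scale 0 to 1). The lowest values, down to 0.12, are in the rows of Ppbp and Itgb3, and the pairs among Pf4, Itga2b, Gp1bb, Gp9 and Treml1 lie at 0.88 or above.

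Markers of other cells were set beside the platelet genes. The correlation of the platelet mean z score with the mean of a marker list was 0.11 for leukocytes in general, 0.05 for retina, -0.02 for erythroid cells, -0.13 for neutrophils, -0.21 for monocytes, 0.04 for T cells, 0.17 for B cells, -0.13 for NK cells, -0.48 for basophils and mast cells and 0.17 for endothelium. The summed level of 9 neutrophil markers, 8 of them with a mean over 1 FPKM, was 2079 to 13971 FPKM in Controls, 2889 to 40243 in Nampt++ samples and 3671 to 15473 in Nampt+ samples. The 6 endothelial markers summed to 1.89 to 6.32 FPKM per sample. Most of this was Tie1, at 1.73 to 5.96 FPKM, which also occurs in blood-forming cells, while Cdh5, which defines endothelium, stayed under 0.1 FPKM in every sample and the other 4 markers stayed under 0.6 FPKM. Against the share of haemoglobin counts r was -0.10 and against total counts -0.30.

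Outside the 9 genes, a list of 73 other genes of platelets and megakaryocytes was examined, of which 71 were found under their symbols and 63 to 65 could be tested. Between Nampt+ and Nampt++ samples 1 of 65 was called, between Nampt++ samples and Controls 0 of 65 (1 had an unadjusted p under 0.05), and between Nampt+ samples and Controls 0 of 63, with the shares over all genes given above. The median log2 fold changes of the list were -0.02, 0.13 and 0.06, beside -2.1e-04, 0.0018 and -0.0027 over all tested genes. The gene called was Thbs1, which encodes thrombospondin 1, a protein of alpha granules that monocytes also make. It stood at 20.3, 21.3, 62.4 and 65.7 FPKM in Nampt++ samples and at 16.1, 7.58, 14.2 and 20.6 FPKM in Nampt+ samples, with a slight overlap, and at 7.73, 88.2 and 11.9 FPKM in Controls. Its ratio was 0.345 and its log2 fold change -1.49 (SE 0.39, unadjusted p = 0.0045 and Benjamini-Hochberg adjusted p = 0.9996 by edgeR), and r with the platelet genes was 0.25. It stayed called under 16 of 17 alternatives, the exception being all groups in a single fit. Control 2 stood apart for this gene, and without it Thbs1 was called higher in Nampt++ samples than in Controls, with a ratio of 4.31 in place of 1.18. Without Control 1 or Control 3 it was called lower in Nampt+ samples than in Controls, with ratios of 0.292 and 0.305 in place of 0.406. Of the 122 other genes that the table's own annotation puts in the KEGG pathway of platelet activation, 1 of 90, 0 of 90 and 1 of 88 were called in the 3 comparisons. This was Syk in each case, a kinase that leukocytes share with platelets. It was lower in Nampt+ samples, at 12.6 FPKM against 39.9 in Nampt++ samples and 34.0 in Controls. The log2 fold changes were -1.67 (SE 0.33) and -1.58 (SE 0.43), both with adjusted p of 0.9996 or more by edgeR. By DESeq2 the unadjusted p of Syk was 6.6e-07 and 6.0e-04 in the same order. In the first of these DESeq2 fits 5 genes of all tested had an adjusted p under 0.05. Syk stayed called in both comparisons under all alternatives run.

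Within this list some genes tracked the platelet genes and others did not. Of 65 genes, 10 (15.4%) had r over 0.9, beside 28 of 11233 genes (0.249%) in all. Surface receptors had the highest median r, 0.60 over 18 genes, led by Clec1b at 0.97, the podoplanin receptor CLEC-2, with 246 FPKM on average. Gp6, the collagen receptor, had r = 0.93 and P2rx1, an ATP-gated channel, 0.90. Fcer1g, an adaptor shared with many leukocytes, was more abundant (769.9 FPKM) and had r = 0.03. In eicosanoid synthesis Ptgs1 and Alox12 had r = 0.92 and 0.88, but the median over the 4 genes was 0.53. Among granule genes Clu had r = 0.96, F13a1 0.93 and Mmrn1 0.88, whereas Srgn, the proteoglycan serglycin of many granulated cells, had -0.14. The cytoskeletal and signalling genes split in the same manner, with Pdlim1 at 0.96, Rgs18 at 0.92, Myl9 and Nrgn at 0.91, Tln1 at 0.03 and Flna at -0.13. Megakaryocyte factors had the lowest median, 0.14 over 11 genes: Tal1 reached 0.88, Gfi1b 0.71 and Nfe2 0.67, and Gata1 had 0.14 and Fli1 -0.0074. Much of this rested on the Nampt+ samples of rats 1 and 3. Without them 2 of the 65 genes kept r over 0.9, F13a1 at 0.96 and Clec1b at 0.93, beside 7 of all genes. The medians became 0.48 for surface receptors, 0.43 for granule genes and 0.19 for megakaryocyte factors, beside 0.24 over all genes in place of 0.021. Tal1 then had r = 0.45, Gfi1b 0.38 and Nfe2 0.10, whereas Runx1 went from 0.13 to 0.64 and Tgfb1 from 0.064 to 0.75. Myh9 (r = 0.15) stood at 1.18 FPKM in the Nampt+ sample of rat 2 and at 33.4 to 95.7 FPKM in the other 10 samples. Gp6, P2rx1, F13a1, Mmrn1, Rgs18, Tln1, Flna, Tal1, Gfi1b, Gata1, Fli1, Runx1, Tgfb1 and Tie1 were named after their values were seen.

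**Figure D5:**
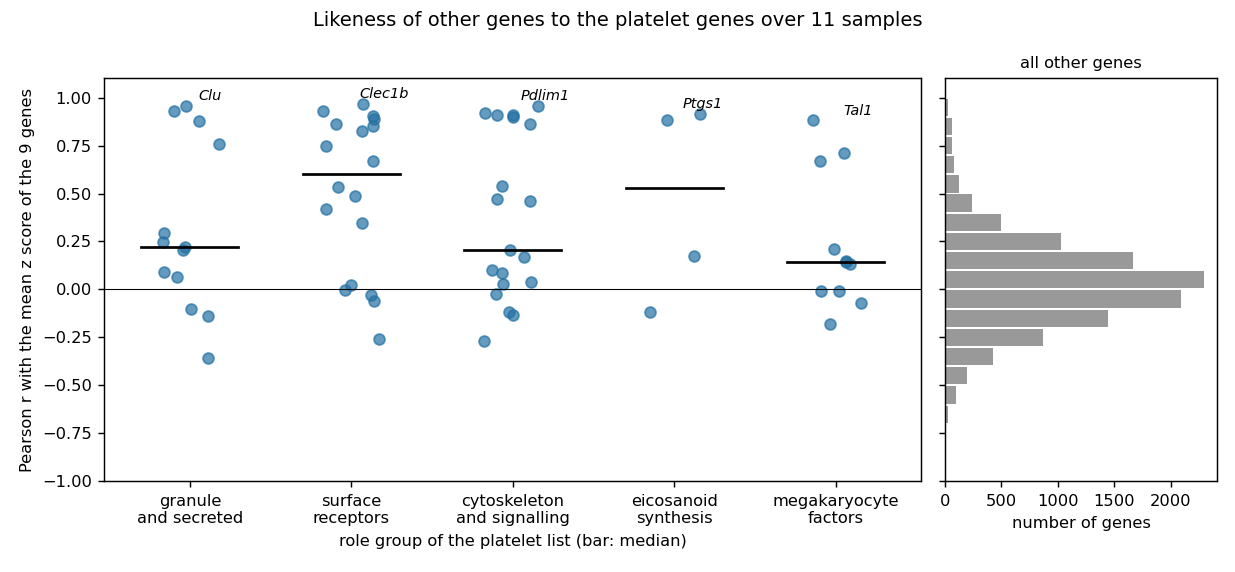
Pearson r over 11 samples between each of 65 further platelet and megakaryocyte genes and the mean z score of the 9 platelet genes, by role (left, bars are medians, the highest gene of each role named), with the distribution over 11233 genes on the right. Surface receptors have the highest median, 0.60, and the genes of all roles spread from negative values to at least 0.88.

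The genes most like the 9 over the samples, members left out, were Pla1a (r = 0.98), Gmpr, F11r and Clec1b (0.97), Clu and Pdlim1 (0.96), Me1 (0.95), and Tax1bp1, Mfap3l and Tax1bp3 (0.94). Only Clec1b, Clu and Pdlim1 of these 10 were on the list of platelet genes. Pla1a, a phospholipase that acts on phosphatidylserine, had 72.1 FPKM in the Nampt+ sample of rat 1, 17.1 FPKM in that of rat 3 and 30.8 to 54.8 FPKM in the other 9. Gmpr, which turns GMP into IMP, had 41.9, 11.5 and 19.2 to 38.3 FPKM in the same order, and F11r, the junctional adhesion molecule A found on platelets and leukocytes, 12.7, 2.96 and 6.03 to 11.2 FPKM. Tax1bp1, an autophagy receptor, was the most abundant of them at 473 FPKM. Without the Nampt+ samples of rats 1 and 3, r was 0.79 for Me1 and 0.84 to 0.94 for the other 9.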

How the data were processed

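RNA from the peripheral leukocytes of 4 CIA rats at 2 statuses and of 3 healthy rats was sequenced by the authors from libraries of a TruSeq RNA kit. The submitters' processing notes name cutadapt 1.9, HISAT2 2.0.4 and StringTie 1.3.4, while the genome build and the way reads were counted are not given in the sources used here. The deposited counts are whole numbers of reads per gene without normalization. The deposited FPKM values were scaled by the authors by gene length and sample total, and 0.0001 stands for 0 in them.

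Genes with a mean of at least 1 FPKM over the groups compared were tested with edgeR 4.0.16 (quasi-likelihood, TMM, R 4.3.3) on the counts, a pair of groups at a time, and p values were adjusted by the Benjamini-Hochberg method over all of them. SE is the fold change divided by the root of F. The thresholds follow the study's methods. The test was first tested on simulated data. Single genes were also compared by exact permutation of log2(FPKM + 1), which left the pairing by rat aside. All counting errors are small at these depths, so the number of rats limits the precision. Samples of a group differed beyond counting error (chi-square per degree of freedom at least 271), so none was counted as a repeat of another.

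Nampt++ and Nampt+ samples of a number come from the same rat, and the rat was a replicate block in an alternative. When each gene was centred on its group, the paired samples correlated over genes at -0.27, -0.24, 0.23 and 0.086 (rats 1 to 4). Controls have no such pairing.

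The 9 platelet genes and all gene lists were chosen with earlier results of these data known. Named were the 9, the listed genes called, the most abundant pair of each role, the 10 genes most like the 9 and KEGG genes called. Haemoglobin genes were 11 genes described as haemoglobin or beta-globin. Promoters are those of RefSeq (GRCr8). Columns of gene annotation were used for KEGG membership, for gene positions and for descriptions, the last for haemoglobin genes and NEWGENE_2724.

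Alternatives were DESeq2 1.42.0, limma 3.58.1 on log2(FPKM + 1), upper quartile scaling, other filters, a pseudocount of 0.1, log2(CPM + 1), haemoglobin genes left out, all groups in a single fit, the replicate block, Spearman correlation and each sample left out in turn. Summing Gp5 with NEWGENE_2724 and Gp1bb with Sept5, and leaving out the Nampt+ samples of rats 1 and 3 together, were added after seeing the data.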

Additional observations from a re-analysis of the deposited data

Results flagged for a closer look

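In 56 groups of 4 samples looked at for the 9 platelet genes and the other named genes, 3 held a sample far from the rest, and chance gives such a sample in about 1 of 20 groups. All 3 were Nampt++ groups with rat 4 on top. The gap to the next sample was 0.97 of the group's range for Tax1bp1 (705 FPKM beside 461 to 468 FPKM), 0.87 for Nrgn (1136 beside 577 to 649.8 FPKM) and 0.85 for Clu (321 beside 204 to 222 FPKM). None of the 9 platelet genes themselves met this rule, and their mean z score was also highest of the Nampt++ samples in rat 4, at 0.92.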

How the results depend on the processing

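The count of platelet genes called was 0 in Nampt+ against Nampt++ and in Nampt+ against Control under every alternative run, and the replicate block changed no call. In Nampt++ against Control it was 1, became 0 with all groups in a single fit and was 0 to 1 with a sample left out. All genes called in the 3 comparisons (72, 77 and 56) became 295, 306 and 261 without a filter and 19, 25 and 14 at a mean of at least 10 FPKM, and 120 by DESeq2 and 145 by limma in Nampt++ against Control. With a sample left out they ran from 58 to 165 (highest without the Nampt+ sample of rat 2), 53 to 462 and 49 to 136 (both highest without Control 2). Genes called of the platelet list became 0 in Nampt+ against Nampt++ with all groups in a single fit, and ran from 1 to 2 (2 when the Nampt+ sample of rat 2 was left out), 0 to 6 (without Control 2) and 0 to 1 (without Control 1 or Control 3). KEGG platelet activation genes became 2 in each comparison without a filter, and ran from 1 to 2 and 0 to 7 (without Control 2) in the first and second. Of the 10 genes most like the platelet genes, 6 were shared with Spearman correlation, and 6 to 10 with a sample left out (fewest without the Nampt+ sample of rat 1).

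Signs of differences that passed no test turned often, and the cause was not tested. For Nampt+ against Nampt++ the log2 fold change became -0.46 for Pf4, -0.10 for Gp1bb, -0.27 for Gp9 and -0.23 for Tubb1 by limma, and -0.39, -0.014, -0.19 and -0.18 with the replicate block. It became 0.019 for Itga2b and 0.033 for Gp5 with upper quartile scaling, 0.022 and 0.034 at a mean of at least 10 FPKM, and 0.034 for Treml1 without the Nampt+ samples of rats 1 and 3. By limma it became 0.010 for Gp1bb in Nampt++ against Control, and -0.034 for Pf4, -0.17 for Itga2b and -0.091 for Gp1bb in Nampt+ against Control. The difference in mean log2(FPKM + 1) of Gp1bb became 0.035 (Nampt+ against Nampt++) and -0.12 (Nampt++ against Control) without haemoglobin genes and -0.022 (Nampt++ against Control) with CPM, and that of Pf4 became 0.024 with CPM in Nampt+ against Control.

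With a sample left out, log2 fold changes of Nampt+ against Nampt++ ran from -0.35 to 0.53 for Pf4, -0.39 to 0.24 for Itga2b, -0.022 to 0.62 for Gp1bb, -0.30 to 0.36 for Gp9, -0.34 to 0.25 for Gp5, -0.33 to 0.22 for Treml1 and -0.33 to 0.38 for Tubb1. Those of Nampt++ against Control ran from -0.069 to 0.35 for Itga2b, -0.042 to 0.48 for Itgb3 and -0.25 to 0.12 for Gp1bb. Those of Nampt+ against Control ran from -0.012 to 0.88 for Pf4, -0.34 to 0.33 for Itga2b, -0.46 to 0.11 for Itgb3, -0.091 to 0.57 for Gp1bb, -0.58 to 0.022 for Gp5 and -0.033 to 0.60 for Treml1. Differences in mean log2(FPKM + 1) of Nampt+ against Nampt++ ran from -1.02 to 0.077 for Pf4, -0.29 to 0.62 for Ppbp, -0.50 to 0.26 for Gp1bb, -0.56 to 0.072 for Gp9 and -0.59 to 0.16 for Tubb1, those of Nampt++ against Control from -0.012 to 0.23 for Itga2b and -0.24 to 0.28 for Gp1bb, and those of Nampt+ against Control from -0.59 to 0.51 for Pf4, -0.54 to 0.099 for Itga2b, -0.51 to 0.018 for Itgb3, -0.49 to 0.27 for Gp1bb, -0.16 to 0.47 for Gp9 and -0.30 to 0.31 for Treml1. Summing Gp5 with NEWGENE_2724 or Gp1bb with Sept5 turned no sign.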
